A study of Saccharomyces cerevisiae with 17 samples.

Results

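The 10 genes INO1, OPI3, CHO1, CHO2, INO2, INO4, OPI1, ITR1, PIS1 and EKI1 of phospholipid and inositol synthesis in Saccharomyces cerevisiae were followed across 17 RNA-seq libraries. They were chosen by name for their function, and they are 10 of the 7125 features in the deposited table. All 10 had a row there, and all 10 passed the filter on low values in each comparison that was tested.

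The study asked how 14-3-3 protein, Spl2 and alternative transcription act on phosphate genes. Every strain was made in BY4741, a haploid yeast of mating type a with LEU2, MET17 and URA3 deleted. Cells pre-grown at 7.2 mM phosphate were washed and incubated for another 60 min in medium with phosphate (7.2 mM) or lacking it (0 mM). In experiment 1, BY4741 was sequenced from 3 cultures at 7.2 mM and 3 at 0 mM, the spl2 deletion strain (∆spl2) from 2 at 7.2 mM and 3 at 0 mM, and the bmh1 deletion strain (∆bmh1) from 1 at 7.2 mM. Experiment 2 compared 2 cultures of the rrp6 deletion strain (∆rrp6) with 1 of BY4741. In experiment 3, 1 culture of BY4741 ΔP, which lacks block P of the SPL2 promoter, was paired with 1 of BY4741. Experiments 2 and 3 were run at 7.2 mM. Spl2 acts on low-affinity phosphate uptake, Bmh1 is a 14-3-3 protein with a close paralog that the strain keeps, and Rrp6 is the exonuclease subunit of the nuclear exosome. The labels do not say how many clones stand behind each deletion strain, and the inositol and choline content of the medium is not given in the sources used here.

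Yeast makes its phospholipids from phosphatidic acid by way of CDP-diacylglycerol. Cho1 turns CDP-diacylglycerol into phosphatidylserine, which is decarboxylated to phosphatidylethanolamine, and the methyltransferases Cho2 and Opi3 carry that lipid on to phosphatidylcholine. Pis1 joins inositol to CDP-diacylglycerol, Ino1 makes inositol phosphate from glucose phosphate, Itr1 imports inositol, and Eki1 phosphorylates ethanolamine in the Kennedy pathway. The activators Ino2 and Ino4 bind as a pair to a promoter element with the core CATGTG, and the repressor Opi1 holds them in check when phosphatidic acid falls, as it does when inositol is supplied.

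This core was searched on both strands in the 250 bases before the start codon of each gene, in the RefSeq annotation of assembly R64. It was present in 7 of the 10 genes, and in 334 of 6001 such windows over all genes (5.57%). The letters CACGTG, the core bound by the phosphate regulator Pho4, were in none of the 10 windows and in 164 of the 6001 (2.73%). A match is a description of the letters and not evidence of binding. The first lines below show 150 bases, from base 250 to base 101 before the start codon, of INO1 and OPI3. Among the 10 genes these had the largest changes in the tested comparisons. The other lines show 30 bases around a core in the remaining genes that had a match. Capitals mark CATGTG, or CACATG where the core lies on the opposite strand of a line.
INO1, chrX:136034-136183, minus strand: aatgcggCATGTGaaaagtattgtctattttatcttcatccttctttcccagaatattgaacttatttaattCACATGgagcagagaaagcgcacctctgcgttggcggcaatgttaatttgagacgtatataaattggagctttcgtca
OPI3, chrX:573036-573185, minus strand: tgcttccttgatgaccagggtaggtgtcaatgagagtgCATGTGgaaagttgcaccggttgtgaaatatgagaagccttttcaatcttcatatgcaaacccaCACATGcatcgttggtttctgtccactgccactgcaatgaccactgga
CHO1, chrV:208616-208645, plus strand: tttagatgggtcCATGTGaaagctcaaagg
INO2, chrIV:699595-699624, minus strand: aagtacaacacaCATGTGaatttttttcag
INO4, chrXV:111990-112019, plus strand: aggtgagaaaaaCATGTGaatattttgttt
ITR1, chrIV:1445671-1445700, minus strand: ccttccccaccgCATGTGaaaaaagctcga
EKI1, chrIV:751402-751431, plus strand: gccactagacagCATGTGaaaacggtgatg

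INO1 and OPI3 each held 2 cores, at 243 to 238 and 178 to 173 bases before the INO1 start and at 212 to 207 and 148 to 143 bases before the OPI3 start. The OPI3 start lies 159 bases from that of the divergent gene MOG1, so the more distant OPI3 core falls inside the annotated MOG1 gene. In INO2 the cores found on either strand overlap, because the letters CACATGTG read the same on both. The INO2 line has in capitals only the core on the strand shown. CHO2, OPI1 and PIS1 had no CATGTG in this window.

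Libraries held 17456154 to 44667485 recovered reads, and 3 reads equalled 0.0672 to 0.172 RPM (reads scaled to the library total). The lowest read number behind any value of the 10 genes was 149. SPL2 reads numbered 0 in the spl2 deletion at 7.2 mM, and 0, 8 and 1 in the libraries of that strain at 0 mM. RRP6 had 0 in both rrp6 deletion libraries, and BMH1 stood at 1.46 RPM in the bmh1 deletion against 996.2 RPM in BY4741. LEU2, MET17 and URA3 had 0 reads in all 17 libraries, and summed markers of mating type a stood at 958.3 to 2090 RPM against 29.9 to 58.0 RPM for mating type alpha. These are bulk cultures, so fewer cells with a transcript and less of it per cell cannot be told apart.

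The 10 genes covered a wide range of levels. In BY4741 of experiment 1 at 7.2 mM, OPI3 had the highest level per length of coding sequence, with 613.9 ± 46.1 RPM per kb (SD, n = 3), followed by PIS1 with 475.9 ± 9.85. CHO1 with 336.8 ± 17.5 and ITR1 with 290.2 ± 27.8 RPM per kb overlapped in their libraries. CHO2 stood at 95.5 ± 7.63 RPM per kb. Regulators were lower. OPI1 with 77.7 ± 4.53 and INO4 with 69.3 ± 5.19 RPM per kb overlapped, and so did the ethanolamine kinase gene EKI1 with 35.7 ± 2.40 and INO2 with 33.5 ± 2.48. INO1 was lowest, at 4.47 ± 0.109 RPM per kb.

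Across the 17 libraries the highest value of a gene was 1.53 times its lowest for PIS1 and 7.65 times for INO1. Without the rrp6 deletion libraries the INO1 ratio was 1.76, and OPI3 then had the widest range, 3.29. BY4741 at 7.2 mM itself varied between experiments. Its 5 libraries ran from 325.6 to 730.8 RPM for OPI3, from 264.9 to 399.6 RPM for CHO1 and from 63.7 to 100.0 RPM for OPI1. The BY4741 library of experiment 2 was the highest of the 5 for OPI3, CHO1, CHO2 and PIS1, and the lowest for INO1, INO2, ITR1 and EKI1.

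**Figure D1:**
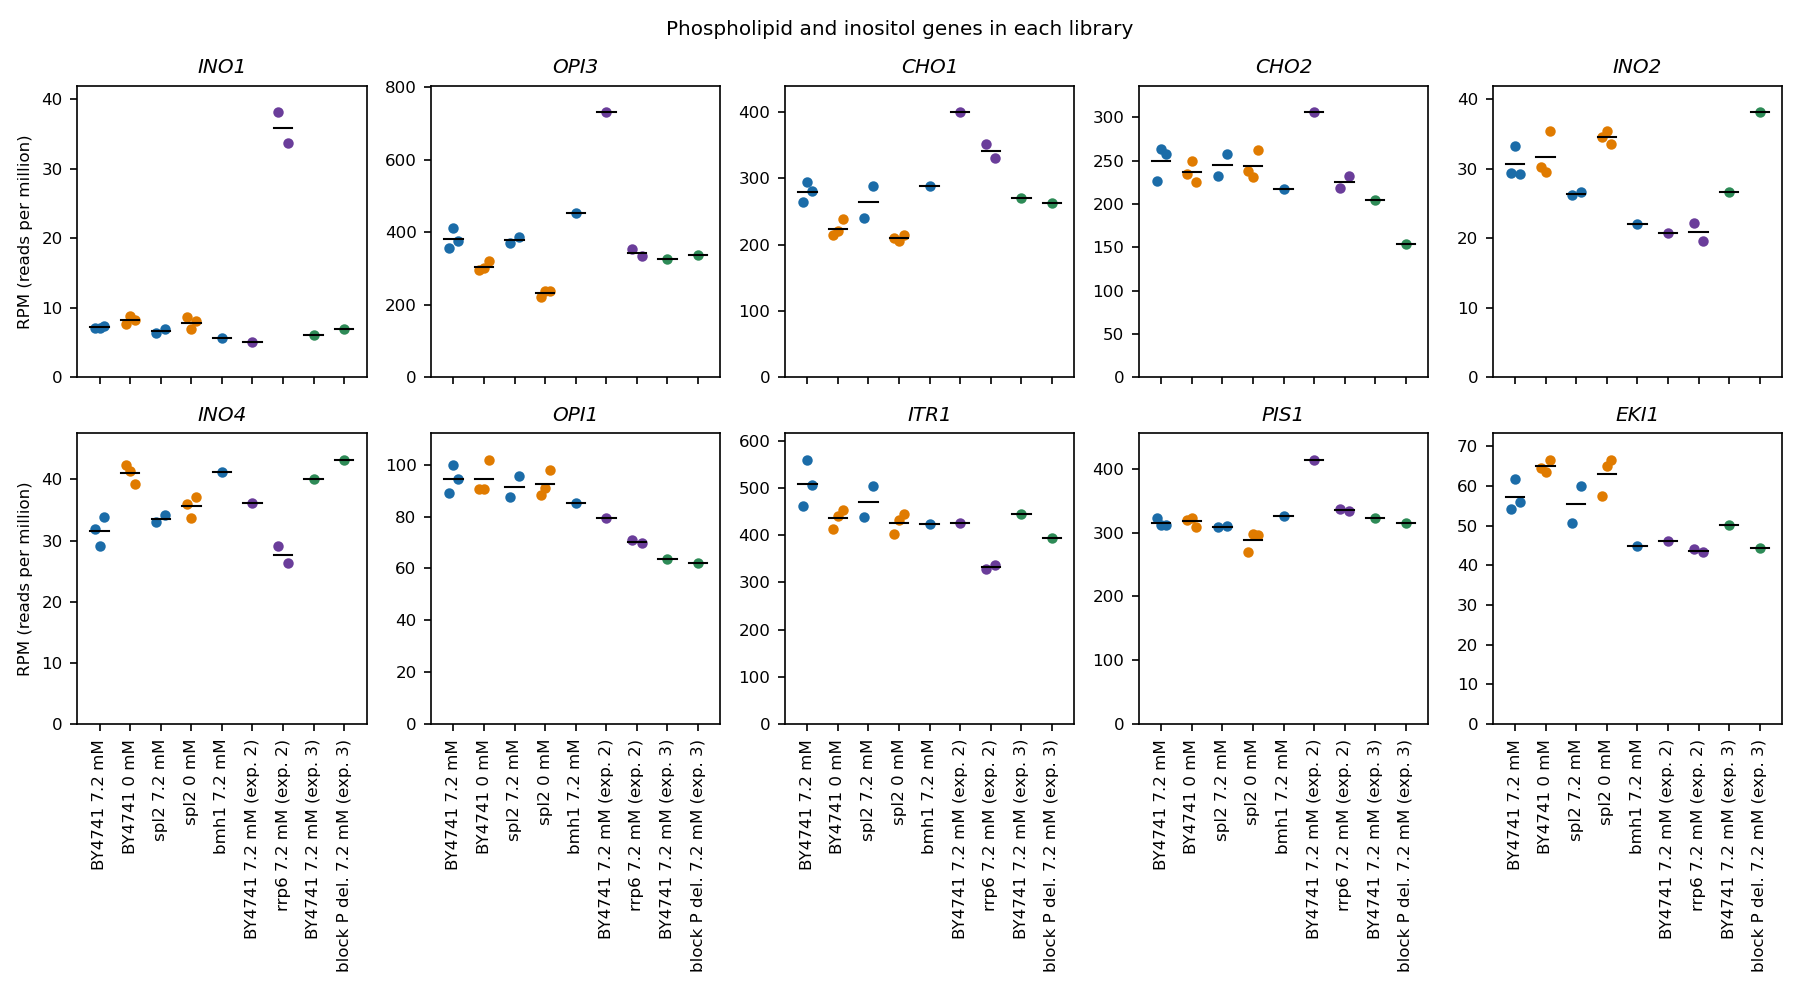
RPM of each of the 10 genes in each of the 17 libraries, 1 panel per gene with its own axis from 0. Points are libraries and lines are group means; blue is 7.2 mM and orange 0 mM phosphate in experiment 1, purple is experiment 2 and green experiment 3. INO1 stands at 33.6 to 38.1 RPM in the rrp6 deletion and at 4.98 to 8.77 RPM elsewhere, and OPI3 is highest, at 730.8 RPM, in BY4741 of experiment 2.

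BY4741 was compared first, after 60 min without phosphate and with it. Enzyme and transporter genes of the pathway fell, namely OPI3, CHO1 and ITR1, while the activator gene INO4 and EKI1 rose against the library total. Of the 10 genes 2 rose and 3 fell, at an adjusted p under 0.05 from limma with Benjamini-Hochberg adjustment over all features tested. Over all features 67.6% passed, 60.9% as higher and 6.68% as lower. The median log2 fold change was 0.0049 for the 10 genes and 0.21 for all features.

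OPI3 stood at 356.0, 412.3 and 375.3 RPM with phosphate and at 294.4, 300.4 and 320.3 RPM without. All 3 libraries without phosphate were below all 3 with it. The mean fell from 381.2 ± 28.6 to 305.0 ± 13.5 RPM (SD, n = 3 and 3), which is -0.32 ± 0.0582 (SE) on the log2(RPM + 1) scale used for all log2 fold changes (limma adjusted p 0.000279). CHO1, the phosphatidylserine synthase gene, stood at 264.9, 294.0 and 280.7 RPM with phosphate and at 214.3, 220.2 and 238.6 RPM without. Its groups did not overlap either, and its log2 fold change was -0.32 ± 0.0657 (SE; limma adjusted p 0.000723).

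ITR1, the inositol permease gene, stood at 462.6, 560.0 and 505.3 RPM with phosphate and at 412.6, 440.7 and 453.1 RPM without. The ranges came close but did not overlap, and the log2 fold change was -0.22 ± 0.0714 (SE; limma adjusted p 0.0126). This call was lost without BY4741 library 10 at 7.2 mM (adjusted p 0.068) and without library 14 at 0 mM (adjusted p 0.0587). CHO2, the first methyltransferase of the pathway to phosphatidylcholine, had overlapping groups with means of 249.2 and 236.4 RPM (log2 fold change -0.07, limma adjusted p 0.342). PIS1, the phosphatidylinositol synthase gene, differed by 0.01 on the log2 scale, with 311.6 to 323.0 RPM with phosphate and 309.3 to 323.4 RPM without (limma adjusted p 0.874). INO1 stood at 7.02, 7.11 and 7.36 RPM with phosphate and at 7.59, 8.77 and 8.27 RPM without. Its libraries without phosphate were all higher, by 0.17 ± 0.0903 (SE) on the log2 scale, but this did not pass (limma adjusted p 0.101).

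Among the regulators, INO4 stood at 31.8, 29.1 and 33.8 RPM with phosphate and at 42.4, 41.4 and 39.3 RPM without. The groups were clearly apart, and the log2 fold change was 0.37 ± 0.063 (SE; limma adjusted p 0.00016). Its partner INO2 had overlapping groups with means of 30.6 and 31.7 RPM (limma adjusted p 0.586), and so did the repressor gene OPI1 with means of 94.4 and 94.5 RPM (limma adjusted p 0.994). EKI1 rose by 0.18 ± 0.0717 (SE; limma adjusted p 0.0384), a call that was lost when any 1 of 5 of the 6 libraries was left out.

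The scaling to the library total bears on these counts, since the median feature rose by 0.21 on that scale. With TMM scaling, which sets libraries level by the bulk of their features, the median feature moved by 0.0073. On that scale 0 of the 10 genes rose and 6 fell, against 18.1% and 20.4% of all features. OPI3 then fell by 0.53, CHO1 by 0.53, ITR1 by 0.43, CHO2 by 0.28, OPI1 by 0.21 and PIS1 by 0.20, with limma adjusted p of 2.34e-06, 9.49e-06, 8.9e-05, 0.00237, 0.00537 and 0.00357. INO4 no longer passed (log2 fold change 0.16, limma adjusted p 0.0648), and EKI1 changed sign to -0.03 (limma adjusted p 0.699). The falls of OPI3, CHO1 and ITR1 therefore held on both scales, whereas the rises held on the scale of the library total.

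The second comparison made the same change of medium in the spl2 deletion strain. OPI3 fell further than in BY4741, CHO1 fell by a like amount, and INO2 rose. Of the 10 genes 1 rose and 2 fell against the library total, where 66% of all features passed, 57.3% as higher and 8.75% as lower. The median log2 fold change was 0.0030 for the 10 genes and 0.23 for all features.

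OPI3 stood at 370.7 and 387.8 RPM with phosphate and at 222.0, 236.6 and 239.1 RPM without. The groups were far apart, at 379.2 ± 12.1 and 232.6 ± 9.19 RPM (SD, n = 2 and 3), so that the level without phosphate was 1.63-fold lower. The log2 fold change was -0.70 ± 0.0651 (SE; limma adjusted p 1.25e-06), and 19 of the 6033 features tested had a lower one. CHO1 stood at 239.9 and 288.1 RPM with phosphate and at 210.4, 205.7 and 215.0 RPM without. Its lower library with phosphate was above all those without, and the log2 fold change was -0.32 ± 0.0734 (SE; limma adjusted p 0.00139).

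INO2 stood at 26.2 and 26.6 RPM with phosphate and at 34.5, 35.5 and 33.5 RPM without. The groups did not overlap, and INO2 changed by 0.37 ± 0.0807 (SE; limma adjusted p 0.00092). INO4 had overlapping groups here, 33.1 and 34.1 RPM with phosphate and 36.0, 33.7 and 37.1 RPM without (log2 fold change 0.08, limma adjusted p 0.329). The other 6 genes did not pass, with log2 fold changes from -0.14 for ITR1 to 0.21 for INO1 and limma adjusted p from 0.054 for EKI1 to 0.926 for CHO2.

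With TMM scaling 0 of the 10 genes rose and 6 fell in the spl2 deletion, against 20.1% and 23.7% of all features. These 6 were OPI3, CHO1, ITR1, PIS1, CHO2 and OPI1, with log2 fold changes of -0.94, -0.56, -0.38, -0.34, -0.24 and -0.22. They are the genes that fell on that scale in BY4741 as well. INO2 no longer passed under TMM (log2 fold change 0.14, limma adjusted p 0.125).

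**Figure D2:**
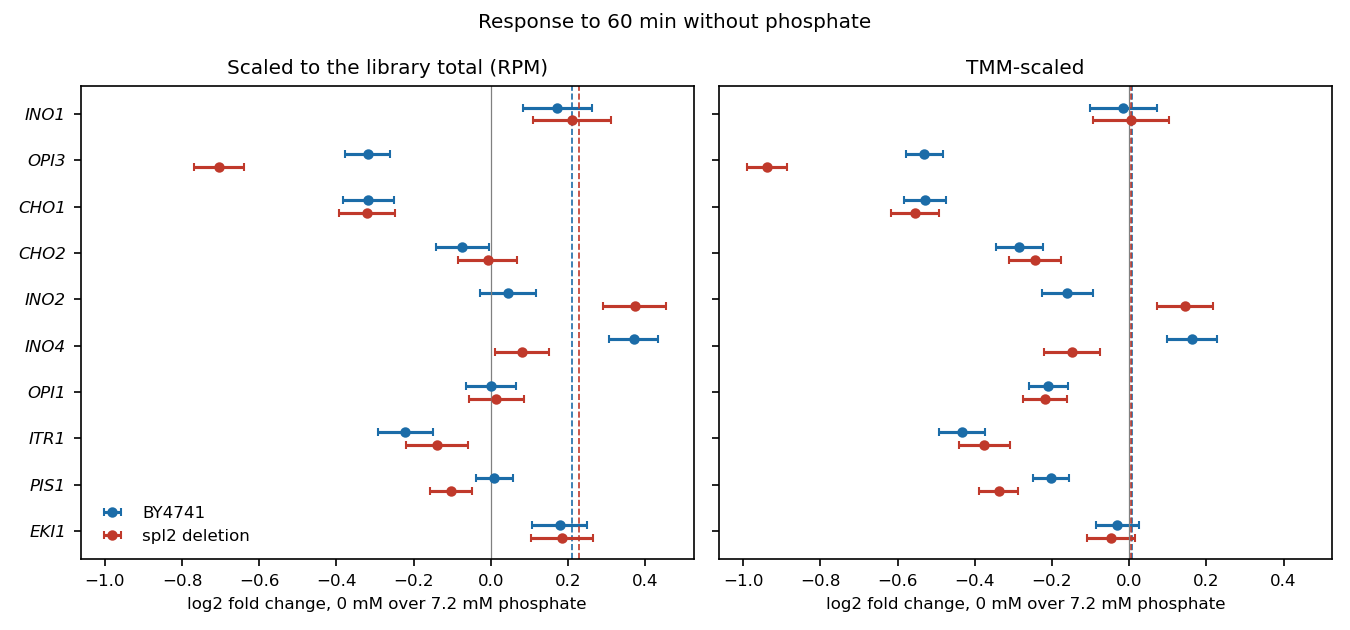
Log2 fold change at 0 mM over 7.2 mM phosphate of each of the 10 genes in BY4741 (blue) and the spl2 deletion (red), scaled to the library total (left) and by TMM (right). Bars are SE from limma, the grey line is 0 and dashed lines are the median of all features in each strain, 0.21 and 0.23 on the left. OPI3 lies at -0.70 in the spl2 deletion and at -0.32 in BY4741 on the left.

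Whether the strains responded differently was tested as the difference between those responses, which uses the same libraries as both. OPI3 was the gene of the 10 that passed, against 14.5% of all features. Its response was lower in the spl2 deletion by 0.38 ± 0.0872 (SE) on the log2 scale, with a limma adjusted p of 0.00896. When each of the 11 libraries of these groups was left out in turn, the difference stayed between -0.44 and -0.34 with limma adjusted p from 0.00382 to 0.0289. INO2 and INO4 pointed in opposite directions, at 0.33 ± 0.108 and -0.29 ± 0.0946 (SE), and missed the threshold against the library total (limma adjusted p 0.0557 and 0.0525). Both passed with TMM scaling (limma adjusted p 0.0479 and 0.0448), which makes 3 of the 10 genes against 17.6% of all features. For CHO1 the difference between the strains was smaller than 0.01 on the log2 scale, with an SE of 0.0984 (limma adjusted p 0.991).

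The strains were also compared at each phosphate level. At 7.2 mM, 0 of the 10 genes passed in limma, against 0.5% of all features. Without adjustment 1 of the 10 had a p under 0.05, and edgeR and DESeq2 each called 0. The log2 fold changes ran from -0.20 ± 0.0805 (SE) for INO2 to 0.09 ± 0.0703 (SE) for INO4, and that of OPI3 was -0.01 ± 0.0652 (SE). A p that misses the threshold does not show that the strains were alike.

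At 0 mM, OPI3 and INO4 were lower in the spl2 deletion, which makes 2 of the 10 genes, where 13.1% of all features passed and 7.44% were lower. All 3 spl2 deletion libraries, at 222.0 to 239.1 RPM of OPI3, lay below all 3 of BY4741, at 294.4 to 320.3 RPM. The mean was 1.31-fold lower and the log2 fold change was -0.39 ± 0.0582 (SE; limma adjusted p 0.000929). INO4 lay at 33.7 to 37.1 RPM against 39.3 to 42.4 RPM in BY4741, and its log2 fold change was -0.20 ± 0.063 (SE; limma adjusted p 0.0474). The INO4 call was lost with TMM scaling (limma adjusted p 0.0553) and when any 1 of 5 of the 6 libraries was left out.

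The bmh1 deletion was represented by 1 library, whose spread was taken to equal that of the other groups, and was compared with the same 3 BY4741 libraries at 7.2 mM. OPI3 and INO4 were higher and INO1, INO2, ITR1 and EKI1 were lower, so 2 of the 10 genes rose and 4 fell. Over all features 64% passed, 15.2% as higher and 48.8% as lower. The median log2 fold change was -0.17 for the 10 genes and -0.22 for all features.

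OPI3 stood at 454.4 RPM in the bmh1 deletion, above the 3 BY4741 libraries (log2 fold change 0.26 ± 0.0825 SE, limma adjusted p 0.0134). INO4 stood at 41.2 RPM, likewise above all 3 (log2 fold change 0.38 ± 0.0889 SE, limma adjusted p 0.00179). Both rises were larger with TMM scaling, 0.49 for OPI3 and 0.61 for INO4. INO2 stood at 22.1 RPM against 29.3 to 33.2 RPM in BY4741, and its log2 fold change was -0.45 ± 0.102 (SE; limma adjusted p 0.00126). Against the 3 BY4741 libraries of experiment 1, the genes of the Ino2 and Ino4 partners thus differed in direction on this scale. With TMM the fall of INO2 did not pass (log2 fold change -0.23). BY4741 at 7.2 mM in experiments 2 and 3 stood at 20.7 and 26.7 RPM for INO2. For INO4 it stood at 36.2 and 40.1 RPM, and for OPI3 at 730.8 and 325.6 RPM.

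EKI1 stood at 44.9 RPM (log2 fold change -0.34 ± 0.101 SE, limma adjusted p 0.00766), ITR1 at 424.6 RPM (-0.26 ± 0.101 SE, 0.0358) and INO1 at 5.59 RPM (-0.31 ± 0.129 SE, 0.0476). All 3 were below each of the 3 BY4741 libraries of experiment 1. BY4741 of experiment 2 at 7.2 mM stood at 46.1 RPM for EKI1, 426.6 RPM for ITR1 and 4.98 RPM for INO1. In experiment 3 it stood at 50.1, 444.7 and 6.04 RPM. With TMM none of the 3 passed, and 4 of the 10 genes rose and 0 fell, against 30.3% and 27.6% of all features. The risers on that scale were OPI3, INO4, CHO1 and PIS1, the last 2 at 0.28 each (limma adjusted p 0.00751 and 0.0024). The INO1 call was also lost without any 1 of the BY4741 libraries (limma adjusted p 0.0624 to 0.0901), and that of ITR1 without library 10 or 13 (limma adjusted p 0.0996 and 0.0559).

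The rrp6 deletion strain was compared with the 1 BY4741 library of its own experiment, again with the spread of the other groups taken for it. INO1 rose and OPI3 fell by more than in any other comparison of these genes. In all 1 of the 10 genes rose and 5 fell, where 40.6% of all features passed, 15.9% as higher and 24.6% as lower. The median log2 fold change was -0.27 for the 10 genes and -0.08 for all features.

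INO1 stood at 38.1 and 33.6 RPM in the rrp6 deletion, from 715 and 587 reads, and at 4.98 RPM in BY4741, from 149 reads. Both rrp6 deletion libraries lay above each of the other 15 libraries, whose highest value was 8.77 RPM. The level was 7.20-fold higher and the log2 fold change was 2.62 ± 0.131 (SE; limma adjusted p 6.75e-11), and 54 of the 6039 features tested had a higher one. No annotated gene overlaps INO1 in R64. Its neighbours, named after their values were seen, changed far less, with log2 fold changes of 0.27 for SNA3, which ends 438 bases before the INO1 start on the same strand, and -0.36 for VPS35 beyond its end (limma adjusted p 0.0119 and 0.0115). Whether strand was used in counting is not given in the sources used here, so reads of INO1 mRNA and of antisense RNA across the gene cannot be told apart. Reads from transcripts running on from SNA3 into INO1 cannot be told apart from those of INO1 mRNA either.

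OPI3 stood at 352.4 and 333.3 RPM in the rrp6 deletion and at 730.8 RPM in the BY4741 library. The rrp6 deletion libraries were both below it, 2.13-fold in level and -1.09 ± 0.0863 (SE; limma adjusted p 2.95e-08). That BY4741 library was itself the highest of the 17 for OPI3, and the other 4 BY4741 libraries at 7.2 mM lay at 325.6 to 412.3 RPM. CHO2 at 218.0 and 232.3 against 305.7 RPM, PIS1 at 336.3 and 334.3 against 414.4 RPM, ITR1 at 329.0 and 336.3 against 426.6 RPM, and INO4 at 29.1 and 26.3 against 36.2 RPM also fell. Their log2 fold changes were -0.44, -0.30, -0.36 and -0.37, with limma adjusted p of 0.00232, 0.00289, 0.0114 and 0.00611. CHO1 stood at 351.6 and 330.1 against 399.6 RPM (limma adjusted p 0.0689, or 0.0352 with TMM), and INO2, OPI1 and EKI1 did not pass on either scale.

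Because 1 library set these values, the rrp6 deletion was also set against the 3 BY4741 libraries of experiment 1, an alternative added after seeing the data. There the strain and the experiment cannot be told apart, and 77.7% of all features passed. INO1 was again higher, 5.01-fold, and its log2 fold change was 2.17 ± 0.0978 (SE; limma adjusted p 7.17e-12). OPI3 differed by -0.15 ± 0.0643 (SE; limma adjusted p 0.0419), and by 0.03 with TMM (limma adjusted p 0.586). Of the other 4 falls, that of ITR1 held, at -0.61 and at -0.43 with TMM (limma adjusted p 1.5e-06 and 2.34e-05). INO4 stood at -0.18 (limma adjusted p 0.0309) and lost its call with TMM, at less than 0.01 below 0 (limma adjusted p 0.962). CHO2 did not pass, at -0.14 and at 0.04 with TMM (limma adjusted p 0.0882 and 0.597). PIS1 did not pass either, at 0.09 (limma adjusted p 0.142), and with TMM it was higher, by 0.27 (limma adjusted p 0.000171). CHO1 was higher, by 0.28 (limma adjusted p 0.00183). INO2, OPI1 and EKI1, which had not passed against the library of experiment 2, were lower here, at -0.53, -0.42 and -0.38 (limma adjusted p 1.72e-05, 3.32e-05 and 0.000278). The size of the OPI3 difference, and with TMM its direction and call, thus depended on which BY4741 libraries served as control, while INO1 was higher and ITR1 lower against both on both scales.

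**Figure D3:**
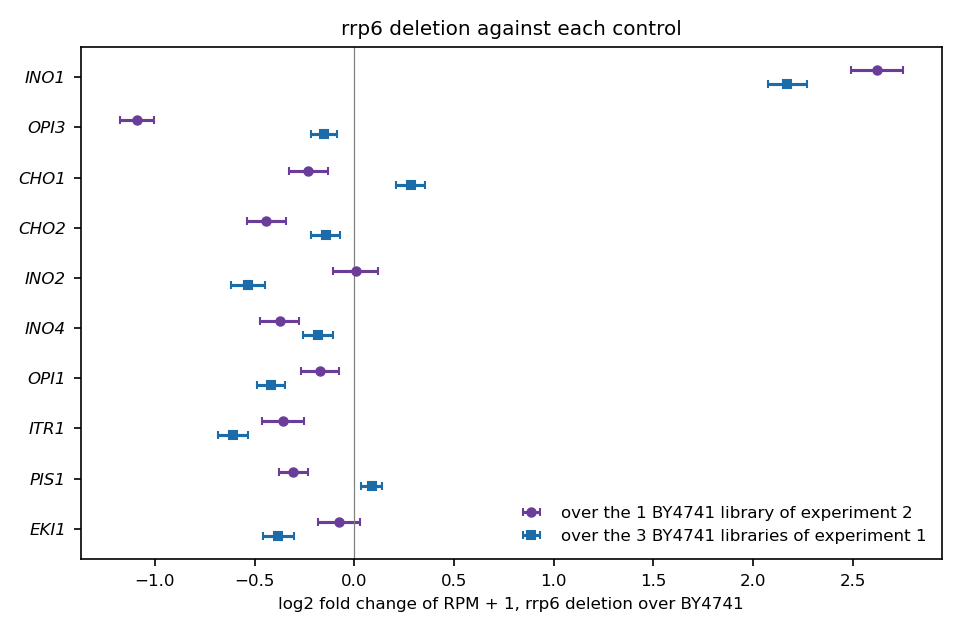
Log2 fold change of log2(RPM + 1) in the rrp6 deletion over BY4741 for each of the 10 genes, against the 1 BY4741 library of the same experiment (purple circles) and against the 3 BY4741 libraries of experiment 1 (blue squares). Bars are SE from limma and the grey line is 0. INO1 lies at 2.62 and 2.17, while OPI3 lies at -1.09 and -0.15.

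The ΔP strain and its BY4741 control had 1 library each, so no test was made. None of the 10 genes differed by 1.5-fold, which 226 of 5703 features did (3.96%). INO2 was the highest ratio, 38.1 against 26.7 RPM, a ratio of reads scaled to depth of 1.43 with an exact 95% interval of 1.32 to 1.54. CHO2 was the lowest, 153.7 against 204.7 RPM, a ratio of 0.751 (0.726 to 0.776). INO1 stood at 6.95 and 6.04 RPM, a ratio of 1.15 whose interval of 0.964 to 1.37 includes no difference, and OPI3 at 337.4 and 325.6 RPM, a ratio of 1.04. These intervals cover counting error only.

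Other genes of lipid metabolism, 49 in 5 lists, were read from the same fits. In the list of inositol and choline supply and phospholipid turnover, 8 of 10 genes rose and 1 fell in BY4741 without phosphate, where 60.9% of all features were higher and 6.68% lower. The list median was 0.39 against 0.21 for all features. With TMM 6 of the 10 rose and 2 fell, against 18.1% and 20.4% of all features. The 6 were INM2, a gene of inositol monophosphatase, GIT1, GDE1 and the phospholipase B genes PLB1, PLB2 and PLB3. HNM1, the choline permease gene, fell on both scales, from 206.9 to 187.0 RPM (log2 fold change -0.14, limma adjusted p 0.0374). GIT1, the permease for glycerophosphoinositol, rose from 5.41 ± 0.170 to 26.3 ± 2.49 RPM (SD, n = 3 and 3), by 2.09 ± 0.0948 (SE; limma adjusted p 1.17e-10) on the log2 scale. GDE1, which cleaves glycerophosphocholine, rose by 0.96 ± 0.0636 (SE; limma adjusted p 1.37e-08). In the spl2 deletion 8 of the 10 rose and 0 fell, against 57.3% and 8.75% of all features, and 6 rose and 1 fell with TMM, against 20.1% and 23.7%. There the phospholipase gene PLB2 rose from 60.6 to 124.3 RPM, by 1.03 (limma adjusted p 1.6e-07). GIT1 rose there to 15.7 ± 1.27 RPM (SD, n = 3), by 1.53 on the log2 scale, and that response was lower than in BY4741 by 0.56 ± 0.142 (SE; limma adjusted p 0.0173).

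The other lists moved closer to the median feature. Without phosphate in BY4741, 7 of 12 genes of other glycerophospholipid branches rose and 1 fell (list median 0.17), 8 of 13 of phosphatidic acid and neutral lipid rose and 0 fell (0.26), 3 of 8 of fatty acid synthesis rose and 1 fell (0.09), and 4 of 6 partners of Opi1 or Ino2-Ino4 rose and 0 fell (0.17). Except for fatty acid synthesis, which had fewer rises, the shares of rises lay near the 60.9% of all features. With TMM the counts of rises and falls were 2 and 4, 2 and 2, 0 and 4, and 0 and 1, against 18.1% and 20.4% of all features. TAM41, a mitochondrial CDP-diacylglycerol synthase gene, rose by 0.37 and PAH1, the phosphatidate phosphatase gene, by 0.39, and both also passed with TMM (limma adjusted p 0.0147 and 0.0102). In the spl2 deletion the counts of rises and falls in the same order were 6 and 1, 7 and 2, 5 and 1, and 5 and 0, against 57.3% and 8.75% of all features. With TMM they were 2 and 5, 3 and 6, 3 and 3, and 1 and 1, against 20.1% and 23.7%, so that in the first pair of lists falls then outnumbered rises. MOT1, an ATPase that removes TATA-binding protein from DNA, rose there by 0.59, which was 0.45 ± 0.0908 (SE) more than in BY4741 (limma adjusted p 0.00512). OLE1, the fatty acid desaturase gene, rose by 0.45 in BY4741 and by 0.73 in the spl2 deletion (limma adjusted p 0.0094 and 0.000732). With TMM the OLE1 rise passed in the spl2 deletion and not in BY4741. The difference between the strains in the OLE1 response did not pass on either scale. In the spl2 deletion without phosphate the OLE1 libraries ran from 185.9 to 314.2 RPM.

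Between the strains at 7.2 mM, 0 of the 49 genes passed in limma, against 0.5% of all features. Of these genes 4 had an unadjusted p under 0.05, and edgeR and DESeq2 each called 0. As for the 10 genes, missing the threshold does not show that the strains were alike. At 0 mM, 4 of 8 fatty acid synthesis genes were higher in the spl2 deletion, ACB1 was lower and 3 did not pass, where 5.64% of all features were higher and 7.44% lower. The list median was 0.16 against -0.02 for all features. ACC1, acetyl-CoA carboxylase, and FAS2, a fatty acid synthase subunit, were higher by 0.23 ± 0.0646 and 0.22 ± 0.065 (SE; limma adjusted p 0.0276 and 0.0372). In the bmh1 deletion 2 of the 49 genes rose and 26 fell, against 15.2% and 48.8% of all features. With TMM 12 rose and 18 fell there, against 30.3% and 27.6%. There 0 of the 6 partners rose and 5 fell (list median -0.57 against -0.22), where 15.2% of all features were higher and 48.8% lower, and 4 of them fell with TMM, against 27.6%. UME6, a DNA-binding regulator, fell by 0.74 and MOT1 by 0.67. For these genes BY4741 at 7.2 mM stood at 31.6 and 29.8 RPM in experiment 2 and at 44.6 and 58.9 RPM in experiment 3. They stood at 31.2 and 36.6 RPM in the bmh1 deletion. In the supply and turnover list 0 of 10 rose and 6 fell, a share near the 48.8% of all features, led by the phospholipase B genes PLB1 and PLB3 with falls of -0.84 and -0.80 (limma adjusted p 4.46e-06 and 5.66e-06). In the choline branch of the Kennedy pathway, CKI1 is the choline kinase gene and PCT1 the gene of the next enzyme. They stood at 22.0 and 42.6 RPM in BY4741 of experiment 2 and at 46.3 and 68.9 RPM in that of experiment 3. In the bmh1 deletion they stood at 23.1 and 46.7 RPM. Against BY4741 of experiment 1 they fell there by 0.63 and 0.62 on the log2 scale. CPT1, the gene of the last enzyme of that branch, was not lower, with 184.5 against 181.1 RPM (log2 fold change 0.03, limma adjusted p 0.771), and it rose by 0.26 with TMM (limma adjusted p 0.0025). In the rrp6 deletion 4 of the 49 rose and 12 fell, where 15.9% of all features were higher and 24.6% lower, so the share of falls was near that of all features. The falls included CKI1 at -0.64 (limma adjusted p 7.03e-05) and the acyl-CoA synthetase gene FAA1 at -0.42 (limma adjusted p 0.00055).

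**Figure D4:**
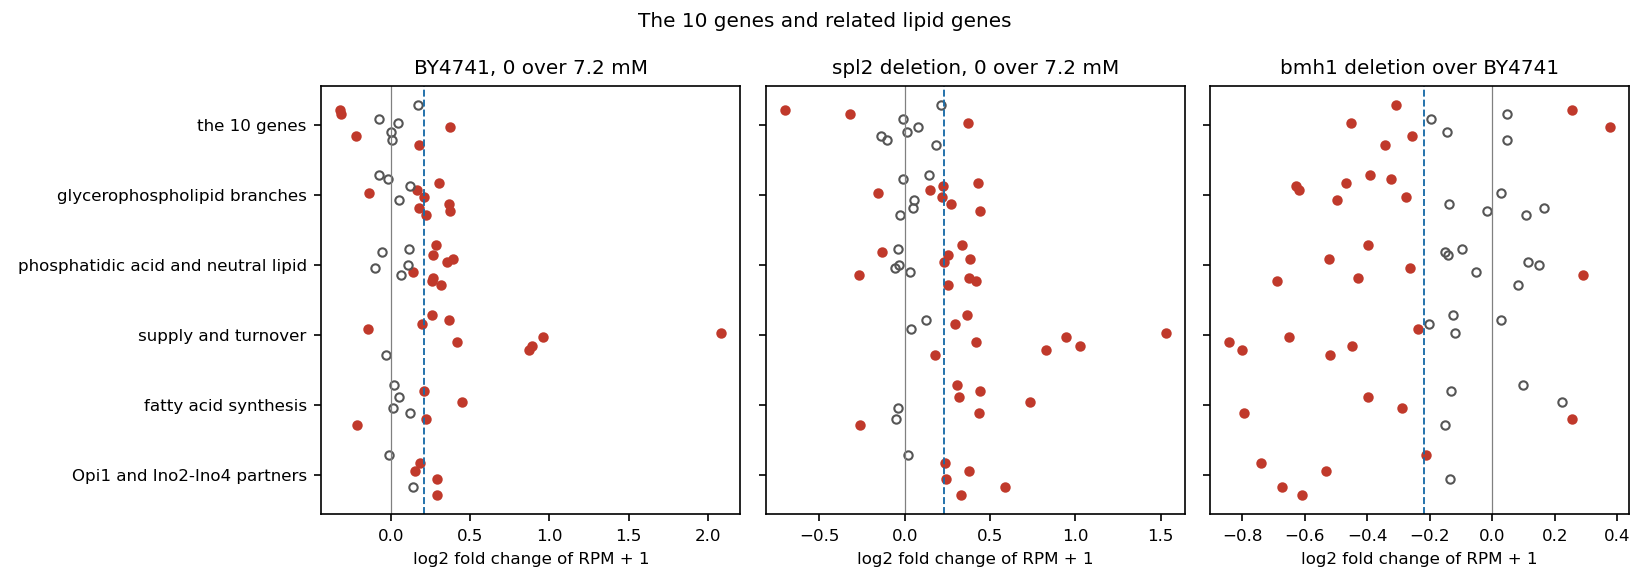
Log2 fold change of log2(RPM + 1) of the 10 genes and of 5 lists of related lipid genes in 3 comparisons, 1 point per gene. Filled red points passed at an adjusted p under 0.05 in limma and open points did not; the dashed line is the median of all features, 0.21, 0.23 and -0.22 from left to right. OPI3 is the leftmost of the 10 genes in the middle panel at -0.70, and GIT1 is the point at 2.09 on the left.

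Genes with patterns like those of INO1 and OPI3 were sought over the 12 libraries of experiment 1, among 5352 features with a mean of at least 10 RPM. For OPI3 the highest Pearson correlations of log2(RPM + 1) were with HCH1 at 0.95, PHO88 at 0.945 and XPT1 at 0.94. For INO1 they were with BOP2 at 0.906, DSC3 at 0.905 and FAR11 at 0.902, at INO1 levels of 5.59 to 8.77 RPM. The libraries share the groups and the scaling to the library total, so these values are descriptions. MOG1, the divergent neighbour of OPI3, came next after those 3 features, at 0.94. It encodes a nuclear import factor and is named here after its values were seen. MOG1 stood at 114.9 and 120.9 RPM in the spl2 deletion with phosphate and at 93.0, 91.2 and 100.5 RPM without, and those groups did not overlap. Its log2 fold change was -0.31 ± 0.0551 (SE; limma adjusted p 0.000203) there, -0.11 in BY4741 without phosphate (limma adjusted p 0.0541), 0.29 in the bmh1 deletion (limma adjusted p 0.00208) and -0.43 in the rrp6 deletion (limma adjusted p 0.000287). The corresponding values of OPI3 were -0.70, -0.32, 0.26 and -1.09. For both genes the rrp6 deletion value rests on the 1 BY4741 library of experiment 2. MOG1 averaged 120.3 RPM in the rrp6 deletion and stood at 161.8 RPM in that library. In BY4741 at 7.2 mM it averaged 122.4 RPM in experiment 1 and stood at 110.1 RPM in experiment 3. The strain difference in the MOG1 phosphate response passed with TMM (limma adjusted p 0.0271) but not against the library total (limma adjusted p 0.0823).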

How the data were processed

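The authors deposited a table of RPM (reads divided by the library total) covering 7125 features and 17 libraries. Per the labels' protocols, libraries came from a stranded mRNA kit and were sequenced on an Illumina instrument; no source used here names the aligner, the counter, the strand setting or the genome build. Each value was a whole multiple of the value of 1 read (100% whole at a tolerance of 0.001 reads), so reads were recovered for the count tests. Read intervals cover counting error only, because PCR copies are not independent molecules.

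Values of log2(RPM + 1) were fitted in R 4.3.3 by limma 3.58.1 (trend option). A feature needed 1 RPM in 2 libraries, or in as many as the smaller compared group had where that was more, and p-values were adjusted over all such features by Benjamini-Hochberg, threshold 0.05. Fold changes on this scale understate low genes; plain folds divide mean RPM values. The 12 libraries of experiment 1 entered 1 model (7 residual degrees of freedom), and the rrp6 contrast used the 15 libraries of experiments 1 and 2 (8). Alternatives were TMM scaling, a pseudocount of 0.5, no filter, edgeR 4.0.16, DESeq2 1.42.0, the compared groups alone and leaving out each library. The fit was tested on simulated data.

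Groups came from the sample labels. For the spl2 deletion the series description gives 3 cultures with phosphate and 2 without, the labels 2 and 3; the labels were followed. The libraries lettered B, C, D and those with A were placed in experiments 2 and 3 from the letters with that description. It states independent cultures, but by the growth protocol a culture at 7.2 mM and another at 0 mM may stem from the same overnight culture, and the tests ignore this.

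The members and the 5 related lists were chosen with earlier results of these data known. In each list and comparison the text drew on the called genes with the largest changes, up to 2. Genes outside that rule were named as well, such as HNM1 in BY4741 without phosphate and CPT1 in the bmh1 deletion. Sequences were read with Python 3.11.15 from the RefSeq R64 genome; the table itself holds no coordinates.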

Additional observations from a re-analysis of the deposited data

Results flagged for a closer look

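Among the 10 genes and the 49 related genes, 6 had a response to 60 min without phosphate that differed between the spl2 deletion and BY4741. This was tested by the interaction term in limma with adjustment over all features, of which 14.5% passed. The 6 were a smaller share of the genes examined than that. OPI3, the only 1 of the 10 phospholipid and inositol genes, had a response lower by 0.38 on the log2 scale (difference -0.38, adjusted p 0.00896). Among the related lists, GIT1 (difference -0.56, adjusted p 0.0173), LPP1, a lipid phosphate phosphatase gene (-0.33, 0.0284), and ACB1, the acyl-CoA-binding protein gene (-0.27, 0.0205), had lower responses in the spl2 deletion. MOT1 (0.45, adjusted p 0.00512) and FAA4, an acyl-CoA synthetase gene (0.31, 0.0219), had higher ones. No group held 4 libraries, so no library was tested for standing apart from its group.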

How the results depend on the processing

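In BY4741 without phosphate 5 of the 10 genes were called, and 6 with TMM; TMM, edgeR and DESeq2 each turned OPI1 to -0.21, PIS1 to -0.20 and EKI1 to -0.030, -0.032 and -0.033. In the spl2 deletion without phosphate 3 were called, and 6 with TMM, edgeR or DESeq2, which each put OPI1 at -0.22. The strain difference at 0 mM went from 2 to 1 with TMM and with no filter, and the interaction from 1 to 3 with TMM and to 2 with edgeR or DESeq2. Leaving out 1 library at a time gave 3 to 4 calls in BY4741 (3 without 0 mM library 14), 3 to 4 in the spl2 deletion, 0 to 0 and 1 to 2 for the strains at 7.2 and 0 mM, 1 to 3 for the interaction (3 without BY4741 0 mM library 17), 4 to 6 for the bmh1 deletion and 6 to 6 for the rrp6 deletion. Against BY4741 of experiment 1, CHO1, INO2 and PIS1 in the rrp6 deletion turned to 0.28, -0.53 and 0.088. The cause of these changes was not tested. Of the values of single genes under alternatives, 717 kept direction and call, 41 lost a call, 37 gained 1 and 15 changed sign.

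Over all features, BY4741 without phosphate gave 4068 calls, and 2314, 2295 and 2188 with TMM, edgeR and DESeq2; the spl2 deletion without phosphate gave 3984, and 2639, 2677 and 2549. The strains at 7.2 mM gave 30, and 111 with DESeq2 and 81 with the compared groups alone. The rrp6 deletion gave 2449, and 4734 against BY4741 of experiment 1. No paired analysis was possible because the library numbers and letters are not shared between groups. The bmh1 library and the BY4741 library of experiment 2 could not be left out, as each was the whole of its group.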

Other observations

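Outside the 10 genes, the fatty acid desaturase gene OLE1 stood at 708.7 RPM in the ΔP library and at 221.4 RPM in its BY4741 control, each a single library. It was 104.5 to 314.2 RPM in the other 15 libraries. OLE1 is one of the related lipid genes and was singled out here after its values were seen, and the difference has no replicate check.

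The BY4741 library of experiment 2 was the only control of its experiment. At 730.8 RPM its OPI3 level was above the other 16 libraries, which ran from 222.0 to 454.4 RPM, and its INO1 level of 4.98 RPM was below them.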
